A study of Mus musculus with 20 samples.

Results

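The cytosolic ribosome is built from a small and a large subunit, and each subunit holds ribosomal RNA and a set of ribosomal proteins that are encoded by nuclear genes. The mRNAs of these proteins are among the most abundant in dividing cells. Many of them begin with a terminal oligopyrimidine (TOP) tract, through which the growth kinase mTORC1 and the RNA-binding protein LARP1 set how strongly they are translated. Mammalian genomes also carry many processed pseudogenes of these genes, which are intronless copies of their mRNAs.

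The genes described here were the protein-coding genes with a mouse ribosomal protein symbol (Rpl, Rps, Rplp or Rpsa), leaving out pseudogenes and the S6 kinases. The rule found 83 of 34083 genes, 51 of the large and 32 of the small subunit. Fau, which encodes a ribosomal protein fused to a ubiquitin-like protein, does not carry such a symbol and was kept apart. After a filter on low counts, 81 of the 83 were tested in both batches.

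The data are bulk RNA-seq of Neuro2A (N2A) cells, a mouse neuroblastoma line, lysed 1 h after whole culture wells had been scanned with a femtosecond pulsed laser. Batch 1 held 5 groups of 3 libraries each: unexposed wells (NC), 3 exposures at intensity I0 and 1 at intensity I2. I0-E0, I0-E2 and I0-E4 received the lower intensity of a single laser, at a pixel dwell time of 2, 10 and 20 µs and a fluency of 10, 48 and 95 J/cm2. The fifth group, I2-E2, received the higher intensity at 2 µs and 48 J/cm2, so it shared the fluency of I0-E2 and the dwell time of I0-E0. Batch 2 held 2 unexposed libraries and 3 of I3-E3-SRS, in which 2 lasers together gave a still higher intensity at 2 µs and 79 J/cm2 through a stronger objective. Unexposed wells were otherwise handled in the same way. All libraries came from 1 cell line, and I3-E3-SRS was present in batch 2 only, so it could be compared only with the unexposed cells of that batch.

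Library totals were 5473588 to 12698770 estimated counts. Of 16 N2A markers, 13 were tested in batch 1, and Hand2, a transcription factor of sympathetic neurons, was at 417 to 510 counts scaled to library size (CPM). Nefl and Nefm, neurofilament genes, were at or near 0. The summed CPM of each list of fibroblast, macrophage, epithelial, endothelial, glial and erythroid markers stayed at or below 23.5 in every library, against 2710 to 3164 for the N2A markers, and Lyz2, Krt18, Hba-a1 and Hbb-bt had no read. NC replicate 1 of batch 2 stood apart from the other libraries in the values given for it below.

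A TOP tract at the annotated start was sought as a C followed by at least 4 pyrimidines (C or T), on the strand of the gene and starting within 2 bases of the RefSeq start (GRCm38.p6). Of 63 ribosomal protein genes with an entry in the RefSeq promoter table, 21 (33.3%) held it, against 10.6% of all 27025 genes in the table. Windows from 15 bases before the start to 15 bases from it are shown for 3 genes with the tract, in capitals, and 1 without. Rps6 encodes the main substrate of the S6 kinases, Rpl13a a large-subunit protein, Rplp2 a stalk protein, and Rpl41 the shortest ribosomal protein. They lie at chr4:86857353-86857382 (minus strand), chr7:45128731-45128760 (minus), chr7:141447636-141447665 (plus) and chr10:128549154-128549183 (minus).
Rps6: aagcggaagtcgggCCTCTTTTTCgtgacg
Rpl13a: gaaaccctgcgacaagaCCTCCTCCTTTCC
Rplp2: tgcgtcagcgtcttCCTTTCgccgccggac
Rpl41: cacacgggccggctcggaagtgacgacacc
A window without the tract says only that these letters do not lie there, since an annotated start can differ from the start used in these cells.

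The levels of the members spanned a wide range in unexposed cells. Levels between genes were compared as TPM, the abundance measure that takes transcript length into account and has the same total in every library. In the 3 NC libraries of batch 1 the 81 tested genes ran from 84.3 to 6141 TPM with a median of 1637 TPM, and 56 of them reached 1000 TPM. They made up 42 of the 100 genes with the highest TPM.

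**Figure D1:**
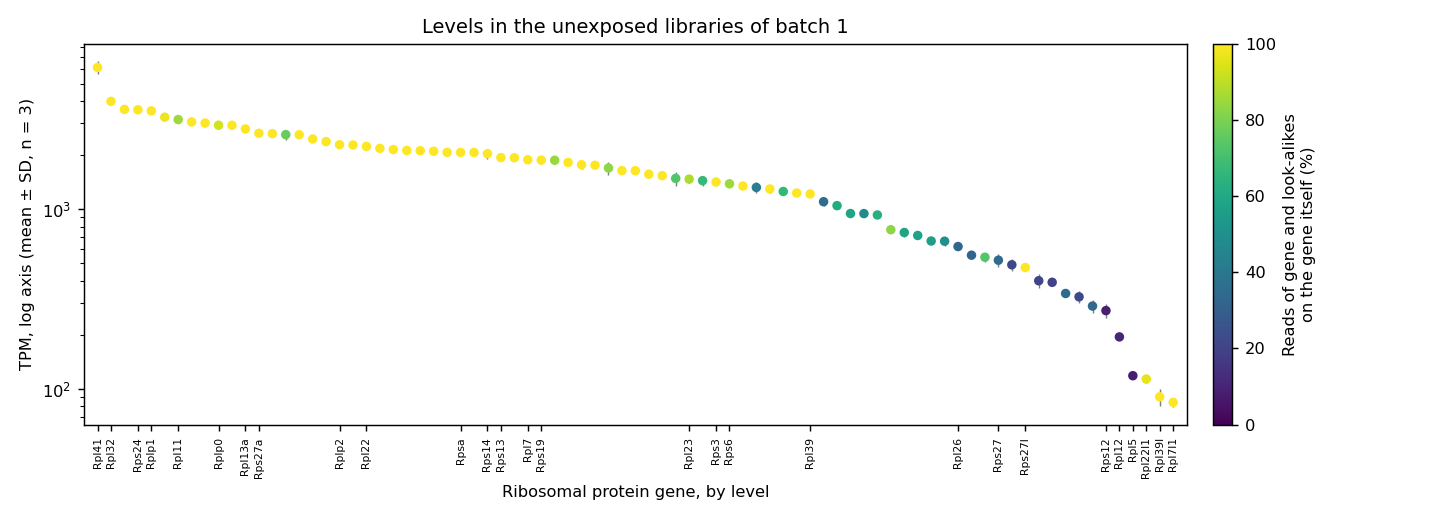
Mean TPM with SD of the 81 tested ribosomal protein genes in the 3 unexposed libraries of batch 1, on a log axis, ordered by level, with some of the genes the text names marked on the axis, and coloured by the percentage of the reads of the gene and its look-alike transcripts that were assigned to the gene itself. Of the 25 genes under 1000 TPM, 14 kept under 50% of those reads and 4 over 95%, namely Rps27l, Rpl22l1, Rpl39l and Rpl7l1.

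The highest level was that of Rpl41, at 6141 ± 505 TPM (SD, n = 3). It was followed by Rpl32, a large-subunit protein, at 3980 ± 82.1 TPM. Rps24 of the small subunit and Rplp1 of the stalk were also among the 5 highest, at 3571 ± 40.1 and 3522 ± 56.5 TPM, and differed from each other by less than the SD of Rplp1. The stalk, the flexible arm of the large subunit that recruits translation factors, is formed by Rplp0, Rplp1 and Rplp2, and the other 2 had 2931 ± 84.6 and 2282 ± 106 TPM. Rps27a, translated as a ubiquitin fusion, had 2644 ± 63.0 TPM. Rpsa, also known as a laminin receptor, had 2069 ± 62.4 TPM. Rps3 lines the mRNA entry channel and had 1417 ± 10.1 TPM, close to the 1384 ± 55.5 TPM of Rps6.

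Several members are known beyond the ribosome or from disease. Rpl11, which with Rpl5 and the 5S rRNA binds MDM2, had 3151 ± 143 TPM. Rps19 and Rps14, both linked to anaemias, had 1874 ± 85.0 and 2036 ± 131 TPM. Rpl23 and Rpl26, which can also bind MDM2, had 1470 ± 72.2 and 620 ± 25.3 TPM. These levels depend on how reads were shared out between genes, which the next values show.

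Among the lowest levels were 2 kinds of gene. Some paralogs of other members were low with nearly all reads on the gene. Rpl7l1, a nucleolar relative of Rpl7, had 84.3 ± 5.12 TPM against 1882 ± 25.9 TPM for Rpl7. Rpl39l, best known from the testis, had 90.5 ± 9.81 TPM against 1215 ± 47.6 TPM for Rpl39. Rpl22l1 had 114 ± 5.16 TPM against 2234 ± 103 TPM for Rpl22. Rpl3l, the striated-muscle paralog of Rpl3, had 0 to 5 reads in each of the 20 libraries, and Rpl10l, the testis paralog of Rpl10, had 1 read in all of them together. The pair Rps27 and Rps27l was different, with listed levels of 520 ± 41.9 and 474 ± 22.3 TPM. Unlike Rps27l, Rps27 held only a minority of the reads of gene and look-alike transcripts, so how the levels of this pair compare is uncertain.

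Other low genes shared much of their sequence with other genes. Rpl5 was listed at 119 ± 3.96 TPM, but transcripts of 4 other genes that resemble it, mainly the transcribed pseudogene Gm15500, took most reads, and only 7.58% of the reads of Rpl5 and these look-alikes were assigned to Rpl5. A look-alike is here a transcript of another gene more than 50% of whose 31-base words also occur in the ribosomal protein gene, and 302 transcripts met this. Rps12 and Rpl12, listed at 273 ± 25.01 and 195 ± 3.84 TPM, held 8.76% and 10.7% of such reads. In the NC libraries of batch 1, 16 genes held less than 50% and 48 more than 95% of the reads of gene and look-alikes, so the order among the former is uncertain.

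Sequences of 2 genes are shown beside a look-alike, to show how alike such pairs are. Rps13, a small-subunit protein, lies at chr7:116331505-116334195 (minus strand, GRCm38), and Rps13-ps2 is a processed pseudogene at chr7:88530446-88530898 (minus). They were identical in all 453 aligned bases of the coding sequence, of which bases 1 to 60 are shown.
Rps13: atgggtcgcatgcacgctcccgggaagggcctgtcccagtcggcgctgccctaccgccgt
Rps13-ps2: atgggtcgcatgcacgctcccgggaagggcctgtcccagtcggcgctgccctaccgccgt
Rps27a (chr11:29545846-29547860, minus strand) and the processed pseudogene Gm8430 (chr6:122456904-122457374, plus) differed at 1 of 471 coding bases, in capitals in the stretch of coding bases 13 to 72.
Rps27a: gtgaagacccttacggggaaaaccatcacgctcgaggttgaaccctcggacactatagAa
Gm8430: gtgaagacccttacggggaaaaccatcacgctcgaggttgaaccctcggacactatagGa
Over all members, a median of 76.5% of the 31-base words occurred in no other gene, and the lowest value was 5.95%, for Rpl36.

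The share of all counts taken by the members overlapped between the groups of batch 1. The 3 NC libraries of batch 1 had 4.30, 4.46 and 4.46%, and I0-E0 had 4.78, 4.20 and 4.44%. I0-E2 had 4.39, 4.54 and 4.86%, and I0-E4 had 5.01, 5.20 and 4.32%. I2-E2 held both the highest and the lowest share of the batch, at 4.69, 5.27 and 4.12%. The ranges of all 4 exposed groups overlapped that of NC. Wilson 95% intervals of these shares were at most 0.0183 percentage points to either side and cover counting error only.

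**Figure D2:**
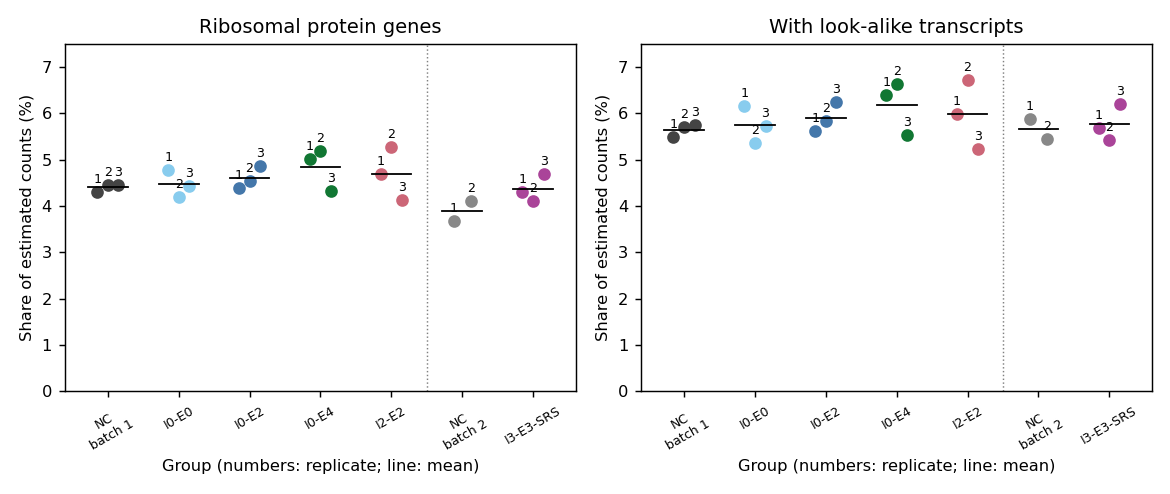
Share of estimated counts on the ribosomal protein genes, alone (left) and with their look-alike transcripts (right), for each library by group, with replicate numbers and the group mean as a line. The I2-E2 libraries span 4.12 to 5.27%, and NC replicate 1 of batch 2 is lowest on the left at 3.69% but lies within its batch on the right at 5.87%.

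The length of the sequenced fragments also differed between libraries. In batch 1 the mean fragment length ran from 192 bases in I0-E0 replicate 3 to 220 bases in I2-E2 replicate 3, the library with the lowest share. In 4 of the 5 groups of batch 1 the library with the longest fragments had the lowest share, the exception being I0-E2. Other short genes moved too. I2-E2 replicates 1, 2 and 3 had a median log2 difference from the NC mean of 0.09, 0.28 and -0.10 over the members, and of 0.12, 0.27 and -0.08 over the tested genes that are no member and whose longest transcript is no longer than that of the median member (1047 bases). In I0-E4 the same medians were 0.20, 0.27 and -0.04 for the members and 0.22, 0.23 and -0.04 for the short genes. The part of fragment length in the comparisons was not tested beyond the fit with it as a covariate given further on.

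**Figure D3:**
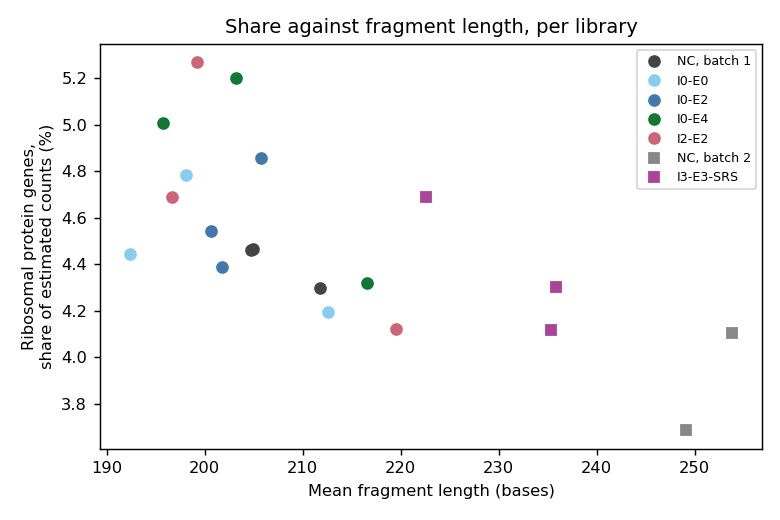
Share of estimated counts on the ribosomal protein genes (vertical axis) against the mean fragment length in bases (horizontal axis), 1 point per library, coloured by group, with squares for batch 2. Batch 2 libraries had longer fragments, 223 to 254 bases, and within batch 1 the longest fragments, 220 bases, went with the lowest share, 4.12%.

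The comparison of each exposure with unexposed cells asked whether irradiation changed the mRNA of these genes after 1 h. No member passed an adjusted p of 0.05 by edgeR's quasi-likelihood test in any of the 4 comparisons of batch 1 with NC, where 0.0% of all 12296 genes passed. The smallest adjusted p of a member was 0.61, in I0-E4. The fitted log2 fold changes of the 81 genes were small: they ran from -0.20 to 0.16 in I0-E0, from -0.07 to 0.17 in I0-E2, from -0.08 to 0.41 in I0-E4 and from -0.14 to 0.43 in I2-E2, with a median standard error of 0.10. The 95% intervals lay within a 1.5-fold change in either direction for 80, 80, 76 and 78 of the 81 genes. An F test of any difference among the 5 groups called no member either, with 1 at an unadjusted p under 0.05 (Rps18), where 0.0% of all genes were called and 4.23% had such a p.

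The median over the members was above 0 in each of these comparisons. It was 0.03 in I0-E0, 0.07 in I0-E2, 0.14 in I0-E4 and 0.10 in I2-E2 on the log2 scale, with 55, 70, 77 and 66 of 81 genes above NC, while the median of all tested genes was 0.00 in each. The medians of the 769 short genes that are no member were 0.04, 0.07, 0.13 and 0.11. The 2 subunits gave nearly the same medians, for instance 0.14 for the large and 0.15 for the small in I0-E4. Leaving out I0-E0 replicate 1 turned the I0-E0 median to -0.03, and leaving out I2-E2 replicate 2 turned that of I2-E2 to -0.01. These comparisons share the same 3 NC libraries.

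**Figure D4:**
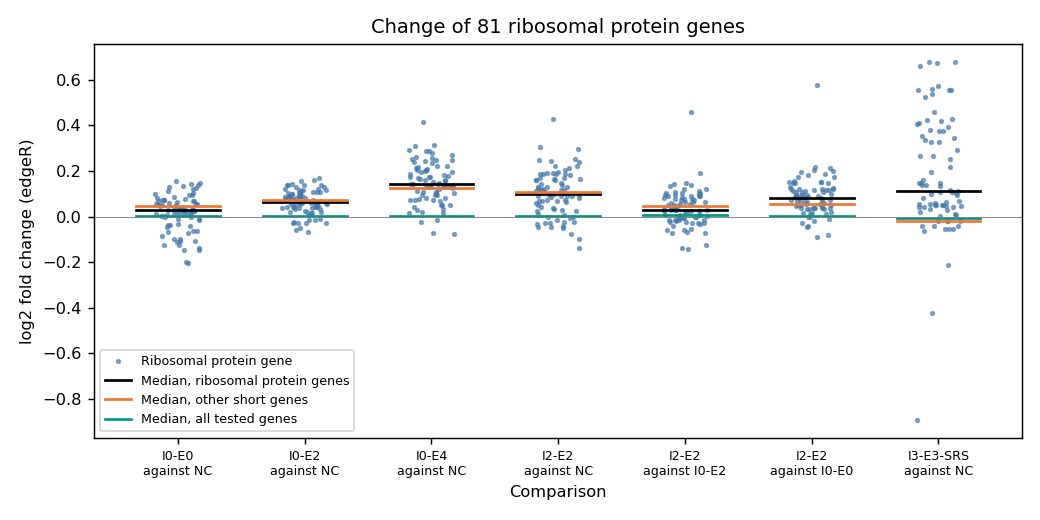
log2 fold change of each of the 81 tested ribosomal protein genes (points, spread sideways for visibility) in each of the 7 comparisons, with medians of these genes, of the other short genes and of all tested genes as lines. In batch 1 the medians of the ribosomal protein genes, up to 0.14, lie close to those of the other short genes. In I3-E3-SRS these medians were 0.11 and -0.02, and single ribosomal protein genes spread from -0.89 to 0.68.

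At the lowest dose, I0-E0, 1 member had an unadjusted p under 0.05 on the lower side, where 1.52% of all genes did, and 0 on the higher side, against 1.84%. It was Rpl30, a large-subunit protein, with 178, 193 and 176 CPM in I0-E0 and 201, 207 and 197 CPM in NC. Its log2 fold change was -0.15 ± 0.07 (SE, adjusted p = 1.00 by edgeR). All I0-E0 libraries lay below all NC libraries for 6 members, among them Rpl35a (-0.14 ± 0.10) and Rpl24 (-0.10 ± 0.07), and none lay above, against 4.36% and 4.68% of all genes.

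In I0-E2, no member had an unadjusted p under 0.05 in either direction, against 1.51% of all genes higher and 1.85% lower. All I0-E2 libraries lay above NC for 6 members and below for none, where 5.8% and 5.4% of all genes did so. They included Rpl23, with 697, 751 and 756 CPM against 634, 695 and 672 CPM in NC and a log2 fold change of 0.14 ± 0.08. The lowest I0-E2 library was only just above the highest NC library. Rpl22l1 (0.16 ± 0.12), Rps20 (0.14 ± 0.11) and Rpl37a (0.16 ± 0.18) were the next by p.

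I0-E4 received the highest fluency of batch 1 and had 8 members with an unadjusted p under 0.05 on the higher side and 0 on the lower, where 4.16% and 3.76% of all genes had one. In either direction, 49 members had such a p without I0-E4 replicate 3, where 16.4% of all genes did, and 1 without I0-E4 replicate 1 or without NC replicate 2, where 3.95% and 5.08% did. The 8 were Rpl3, Rpl22l1, Rps2, Rps18, Rps21, Rpl37, Rps20 and Rpl38. Groups did not overlap for 13 members, all higher, against 6.66% of all genes higher and 6.03% lower. Rpl22l1, which regulates splicing besides its ribosomal role, had 32.4, 30.3 and 28.8 CPM against 25.6, 24.0 and 24.9 CPM in NC, with a log2 fold change of 0.29 ± 0.12. Rps21, which takes part in late small-subunit maturation, had 354, 398 and 296 CPM against 266, 288 and 291 CPM (0.31 ± 0.13). For Rps18 and Rpl37 the log2 fold changes were 0.21 ± 0.09 and 0.18 ± 0.08. The adjusted p of each was at least 0.61 by edgeR. Rpl3, a large-subunit protein, had the smallest p and 365, 332 and 245 CPM, but replicate 3 lay within the NC range of 212 to 256 CPM.

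I2-E2 delivered the fluency of I0-E2 at a higher intensity. Against NC, 1 member (Rpl22l1, 0.25) had an unadjusted p under 0.05 on the higher side and 0 on the lower, where 3.84% and 3.35% of all genes did. Without I2-E2 replicate 3, 34 members had one in either direction, against 14% of all genes. Groups did not overlap for 2 members, both lower, against 6.22% of all genes higher and 5.84% lower. One of them was Rpl30, with 195, 190 and 179 CPM in I2-E2 and a log2 fold change of -0.10 ± 0.07.

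Intensity was also compared among the exposed groups, but neither comparison changed it alone. I2-E2 and I0-E2 also differed in dwell time (2 against 10 µs), and I2-E2 and I0-E0 in fluency (48 against 10 J/cm2). The settings cannot be told apart in these comparisons. I2-E2 against I0-E2, at equal fluency, called 0 members and 0.0% of all genes, and 2 members had an unadjusted p under 0.05, both lower: Rpl15 (-0.14 ± 0.06) and Rpl7l1 (-0.14 ± 0.06), where 2.57% of all genes were so on the lower and 2.68% on the higher side. I2-E2 against I0-E0, at equal dwell time, also called 0 members and 0.0% of all genes, with 1 member, Rps18, at such a p on the higher side, where 2.77% of all genes were, and none on the lower, against 3.34%. Member medians were 0.03 and 0.08, and without I2-E2 replicate 2 they turned to -0.07 and -0.02.

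The members differed in how steady they were over the 15 libraries of batch 1. The SD of log2 CPM had a median of 0.14. Rps25, a small-subunit protein used by viral internal ribosome entry, was the steadiest at 0.07, with 671 to 796 CPM, and was followed by Rpl7l1, Rpl10a, Rpl15 and Rpl30 at 0.08 to 0.09. The largest SD was that of Rps27, at 0.64, with 15.6 CPM in I0-E0 replicate 2 and 110 CPM in I2-E2 replicate 2. Rps27 held 34.7% of the reads of gene and look-alikes in NC. Rpl37a, Rpl41, Rpl36 and Rpl3 followed at 0.21 to 0.26.

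The most intense exposure, I3-E3-SRS, was compared with 2 unexposed libraries. No member was called by edgeR, and 0.0% of all 12031 genes were. The 95% intervals lay within a 1.5-fold change in either direction for 51 of the 81 genes, with log2 limits down to -1.38 and up to 1.62. At an unadjusted p under 0.05, 18 members were higher and 1 was lower, where 1.53% and 2.49% of all genes were, and groups did not overlap for 22 members higher and 1 lower, against 8.78% and 9.82%. With look-alike transcripts 3 members had such a p in either direction, against 3.95% of all genes. With mean fragment length as a covariate 6 members had one, against 5.05%. Not every setting lowered the 19 of the main fit. Limma-voom gave 23, against 2.77%, and scaling to library totals 21, against 3.99%. A correction for gene length gave 26, against 4.41%, and dropping the low-count filter 33, against 5.14%. DESeq2 gave 13, against 2.27%, and a replicate block 11, against 3.7%. Limma-trend on log2(TPM + 1) gave 9, against 2.68%, and adding pseudogenes named after members 12, against 3.99%. Mean fragment length was 249 and 254 bases in NC and 236, 235 and 223 bases in I3-E3-SRS. The groups did not overlap in it, so exposure and fragment length cannot be told apart in this batch. The median log2 fold change was 0.11, with 67 of 81 genes above NC. Over the 774 short genes that are no member it was -0.02, with 374 above NC. Without NC replicate 1, 10 members in place of 19 had an unadjusted p under 0.05, against 3.49% of all genes. The median of the members was then 0.09, and 69 of them were above NC.

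Rps29, a zinc-finger protein of the small subunit, had 312, 295 and 365 CPM in I3-E3-SRS and 221 and 229 CPM in NC. Its log2 fold change was 0.53 ± 0.10 (adjusted p = 0.95 by edgeR). With look-alike transcripts it had 312, 295 and 365 CPM against 343 and 229 CPM, so that the groups overlapped, and the fitted change was 0.19. Rpl38, a large-subunit protein known for its part in axial patterning, had 282, 252 and 322 CPM against 139 and 217 CPM (0.67 ± 0.18), and 0.21 with look-alikes. Without NC replicate 1 its log2 fold change was 0.40, and without NC replicate 2 it was 1.04.

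Rpl10, which joins the large subunit in the last step of its maturation, was the member lower in I3-E3-SRS. It had 181, 223 and 179 CPM against 456 and 267 CPM, a log2 fold change of -0.89 ± 0.21, which was -0.46 without NC replicate 1 and -1.23 without NC replicate 2. Together with its look-alikes it had 1180, 1181 and 1259 CPM against 1176 and 1151 CPM, a fitted change of 0.053, opposite in sign. Rpl3 (0.26 ± 0.07) and Rps3a1 (0.41 ± 0.11) also turned, to -0.0059 and -0.056.

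NC replicate 1 of batch 2 differed from NC replicate 2 in where many of these reads were placed. Rps27a had 263 CPM in replicate 1 and 684 CPM in replicate 2, against 730, 705 and 845 CPM in I3-E3-SRS. With look-alikes the values were 756, 699, 730, 710 and 850 CPM. The pseudogene Gm8430, whose sequence is shown beside that of Rps27a, had 191 CPM in replicate 1 and 0 to 8.37 CPM in the other 4 libraries. Another pseudogene, Rps27a-ps2, had 258 CPM in replicate 1 and 0 to 7.39 CPM in those 4. Rps6 had 256 and 618 CPM in NC alone and 779 and 745 CPM with look-alikes. For both genes, replicate 1 was far below the other 4 libraries alone and among them once the look-alikes were added. For Rps29 the gap was wider with look-alikes, at 343 and 229 CPM in NC against 221 and 229 CPM alone. Over the tested members the ratio of replicate 1 to replicate 2 had a median of 0.97 alone and 1.10 with look-alikes.

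**Figure D5:**
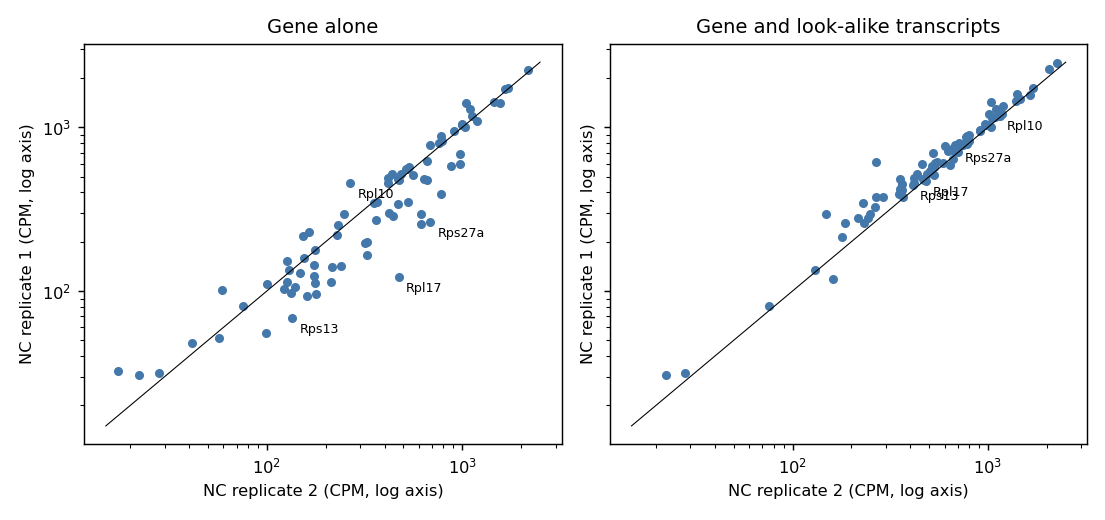
CPM of the 81 tested ribosomal protein genes in NC replicate 1 (vertical) against NC replicate 2 (horizontal) of batch 2, on log axes, for the gene alone (left) and with its look-alike transcripts (right), with the line of equal values. Genes such as Rps27a, at 263 against 684 CPM, lie far below the line on the left and near it on the right.

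Over the 81 genes, NC replicate 1 was the lowest library of batch 2 for 41 members (50.6%), where it was the lowest for 24.8% of all tested genes. With look-alikes it was lowest for 4 and highest for 21 of the 81. Over all tested genes, counted without look-alikes, it was the highest library for 24.96%. Members took 3.69% of its counts and look-alikes 2.19%, against 4.10 to 4.69% and 1.32 to 1.52% in the other 4 libraries. Summed, the share was 5.87%, within the 5.43 to 6.21% of those libraries. It also had reads on short transcripts: a 176-base Rpl13a transcript drew 574 reads there and 0 in the other 4, and the TPM of Rpl13a was 11675 against 3255 to 3982. Without NC replicate 1 the fit called 0 members, and without NC replicate 2, which leaves replicate 1 alone, it called 32 members, 29 higher and 3 lower, and 5.27% of all 12737 genes.

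Between batches, some genes also differed in where reads lay. Rps13 had 423 to 624 CPM in batch 1 and 68.0 to 159 CPM in batch 2. Rps13-ps2, identical to it over the aligned coding bases only, had 0 to 8.2 CPM and 272 to 375 CPM. The batches were not tested against each other.

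Genes that work with the ribosomal proteins moved little as well, and none was called in any comparison. Of 20 tested mRNAs of translation factors and other TOP mRNAs, 11, 15, 19 and 17 were above NC in the groups I0-E0, I0-E2, I0-E4 and then I2-E2, and the medians were 0.00, 0.04, 0.08 and 0.06. Of 40 ribosome biogenesis genes, 6 had an unadjusted p under 0.05 in I0-E4 and 5 in I2-E2, all higher, where 4.16% and 3.84% of all genes were higher at such a p. They included Gar1 of the H/ACA particle (0.41 ± 0.15 and 0.53 ± 0.15) and the nucleolar methyltransferase Fbl (0.36 ± 0.17 and 0.47 ± 0.17), and the list medians were 0.04 and 0.03. Of 14 mTORC1 and TOP regulators, 2 had such a p on the lower side in I0-E2, where 1.85% of all genes did. In I0-E4, 2 had one on the lower and 1 on the higher side, against 3.76% and 4.16%. In I2-E2, 1 had one on the lower side, against 3.35%. Among these regulators Tsc1, an inhibitor of mTORC1, was at -0.23 ± 0.10 in I0-E2 and -0.24 ± 0.10 in I0-E4. Of 4 genes of the MDM2 and p53 response, 0 had such a p in any comparison.

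Mitochondrial ribosomal proteins, which serve a separate ribosome, had medians of 0.03, 0.04, 0.11 and 0.05 over 78 genes in the same 4 groups. Mitochondrial-encoded mRNAs had medians of -0.09, -0.18, -0.16 and 0.03 over 13 genes. In I2-E2 against I0-E2 all 13 were above I0-E2, with a median of 0.32. Of these, 3 had an unadjusted p under 0.05, where 2.68% of all genes were higher at such a p. Per library, the median log2 difference of the 13 from the NC mean was 0.05, -0.04 and 0.06 in I2-E2. It was -0.33, -0.17 and -0.06 in I0-E2, and it spread from -0.45 to 0.25 within I0-E0 and from -0.36 to 0.15 within I0-E4. In I3-E3-SRS the median of the 13 was 0.17, with 11 above NC. Its library medians were 0.03, 0.39 and -0.06, against 0.08 and -0.08 in NC. Of the 13 genes, 2 had an unadjusted p under 0.05, both higher, where 1.53% of all genes were. Fau had no such p against NC in batch 1. Its log2 fold change was 0.25 ± 0.09 in I2-E2 against I0-E0 and 0.42 ± 0.17 in I3-E3-SRS (adjusted p = 0.74 and 1.00 by edgeR). In I3-E3-SRS the medians of the translation factors, biogenesis genes and mitochondrial ribosomal proteins were 0.02, 0.00 and 0.03.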

How the data were processed

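Per the labels and the study's methods, RNA was extracted from exposed and unexposed wells and quantified with Salmon (version not given in the sources used here). The authors deposited estimated counts and TPM per transcript for each library. Transcripts were matched to GENCODE vM21 (98.6% matched) and summed per gene, and expected counts were rounded. Genes were filtered with filterByExpr (minimum count 10), scaled by TMM and tested per batch with edgeR 4.0.16 (glmQLFit, Benjamini-Hochberg adjusted p under 0.05) in R 4.3.3, with residual degrees of freedom of 10 and 3. The study used limma, which was run as an alternative with DESeq2 1.42.0. CPM are on TMM-scaled totals. The test was checked on simulated data. Mean fragment length was read from transcript and effective lengths. Replicates were separate wells of 1 line, and p-values reflect only how far such wells differ. Named genes were members called, the up to 4 per direction with the smallest p and no overlap with NC, the 5 highest and 8 lowest by TPM, paralog pairs, members with roles of their own, and the 5 most and least variable. Members and lists were chosen with earlier results of these data known. Some members and list genes were analysed but are not reported here.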

Additional observations from a re-analysis of the deposited data

How the results depend on the processing

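Calls and medians were recomputed with other scalings, tools, filters and samples. Without a filter on low counts, 10 members were called in I0-E4, 3 in I2-E2, 1 in I2-E2 against I0-E2, 1 in I2-E2 against I0-E0, 8 in the F test and 4 in I3-E3-SRS, where 0.68, 0.633, 0.494, 0.36, 1.4 and 0.96% of all genes were, and DESeq2 called 1 (Rps29) in I3-E3-SRS, with 0.125% of all genes. Leaving out 1 library at a time gave 0 calls in every comparison of batch 1 and 0 to 32 in I3-E3-SRS, where the 32 came without NC replicate 2 and 5.27% of all genes were called. For I3-E3-SRS, the median log2 fold change of the members was 0.11 and became 0.50 with limma-trend on log2(TPM + 1), where that of all genes was 0.34, 0.03 with look-alike transcripts and -0.059 with mean fragment length as a covariate. The last 2 were chosen after seeing the data. The ratio of the member share in I3-E3-SRS to that in NC was 1.12 and became 1.02 with look-alike transcripts. Summed with pseudogenes named after them, Rpl3 and Rpl10 turned to -0.0066 and 0.072 in I3-E3-SRS, and with look-alikes Rpl3, Rpl10 and Rps3a1 turned to -0.0059, 0.053 and -0.056. The cause was not tested. With fragment length as a covariate the I0-E0 median was -0.04, and leaving out 1 library gave -0.03 to 0.07 in I0-E0, 0.03 to 0.10 in I0-E2, 0.08 to 0.22 in I0-E4, -0.01 to 0.19 in I2-E2, -0.07 to 0.11 in I2-E2 against I0-E2, -0.02 to 0.18 in I2-E2 against I0-E0 and 0.05 to 0.16 in I3-E3-SRS. With the trend on gene length removed, the medians of I0-E4 and I2-E2 were 0.05 and 0.02. At an unadjusted p under 0.05 by edgeR, I0-E4 had 8 members in the main fit, against 7.91% of all genes. It had 30 with the libraries of the 2 groups only, against 8.92%, and 19 with fragment length as a covariate, against 9.78%. With that covariate I2-E2 had 8 members in place of 1 against NC, where 8.34% of all genes had one. Against I0-E0 it had 18 in place of 1, where 9.26% did. A replicate block called 0 members in every comparison, with a median of 0.06 in I3-E3-SRS. Same-numbered libraries of batch 1 did not deviate together (median r -0.01 over 30 pairs), and 5 of 15 correlated best with their own number.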
